A study of Mus musculus with 15 samples.

Results

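Perivascular mesenchymal cells that lack podoplanin (PDPN, a surface glycoprotein of fibroblasts) were compared between lymph node and thymus of C57BL/6 mice aged 2 weeks. The comparison took 6 of the 15 arrays of the study, namely the 3 arrays titled PDPN- LNMC (lymph node mesenchymal cells) and the 3 titled PDPN- TMC (thymic mesenchymal cells), across all 18718 genes with a value. Both populations were sorted as PDGFRβ+, PDPN- and Ly51+ after digestion of the tissue with liberase TM and DNase I, and no genotype or further treatment is given for either. The other 9 arrays held PDPN+BP3- cells of both tissues and PDPN+BP3+ cells of lymph node, with 3 arrays each. A thymus array stands for a pool of 3 mice, and a lymph node array for inguinal, axillary and brachial nodes of 10 to 11 mice, so the size of the pool cannot be told apart from the tissue. The labels call the arrays biological replicates, and the design names 3 individual experiments.

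PDGFRβ is the receptor through which endothelial cells recruit pericytes, the mural cells that wrap capillaries and small veins, and it is shared by smooth muscle cells and fibroblasts. Ly51 is the aminopeptidase encoded by Enpep. In lymph node, the vessels these cells surround include the high endothelial venules through which lymphocytes enter from blood. In thymus, progenitors enter and mature T cells leave through vessels near the border of cortex and medulla, and much of the thymic mesenchyme descends from the neural crest.

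Values are RMA signals on a log2 scale. A difference is the lymph node mean minus the thymus mean, given on the log2 scale ± its standard error from limma (3 arrays per group), and a gene is called at a limma p of 0.05 adjusted over all 18718 genes. The median of the whole table was 3.80, and a level under it need not stand above background. Correlations across genes were 0.987 to 0.994 between PDPN- arrays of the same tissue and 0.974 to 0.977 between tissues; genes are not independent replicates. Array medians ran from 3.77 to 3.885 except on thymus PDPN+BP3- replicate 1, at 3.58. That array enters group means only in the comparison with podoplanin-positive cells. The variance was fitted over all arrays of the study, so it also enters the standard errors and calls of the PDPN- comparison.

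The sorted phenotype was present on all 6 arrays. Pdgfrb stood at 10.53, 10.15 and 10.31 on the lymph node arrays and at 10.65, 10.63 and 10.55 on the thymus arrays. Enpep was at 7.63, 7.63 and 7.82 in lymph node and at 8.15, 8.03 and 8.04 in thymus. None of the 4 sort antigen genes was called between the tissues. Pdpn, at 3.34 to 3.48 in lymph node and 2.77 to 3.25 in thymus, differed by 0.39 ± 0.13 (adjusted p 0.0838). It was called after cyclic loess normalization (0.46) and without thymus PDPN- replicate 2 (0.51). Its level was 8.16 in PDPN+BP3- cells of lymph node and 9.11 in those of thymus. Bst1, which encodes BP3, stood at 2.06 to 2.52 on the 6 arrays.

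All 20 measured pericyte genes had mean signals above the table median in both tissues, which alone does not mark a cell type. Their mean was 8.90 to 8.96 on the lymph node PDPN- arrays and 9.45 to 9.59 on those of thymus. On the PDPN+BP3- arrays it was 6.72 to 6.845 in lymph node and 6.17 to 6.55 in thymus. The perivascular label goes with this higher mean in PDPN- cells. Rgs5, a regulator of G protein signalling used to mark pericytes, was at 10.81, 10.77 and 10.84 in lymph node and at 10.87, 10.91 and 10.83 in thymus. The 2 sets of arrays overlapped, and the difference was -0.06 ± 0.12. Acta2, the actin of smooth muscle, stood at 10.78 to 10.84 in lymph node and 10.64 to 10.70 in thymus, a difference of 0.13 ± 0.12 that was not called.

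**Figure D1:**
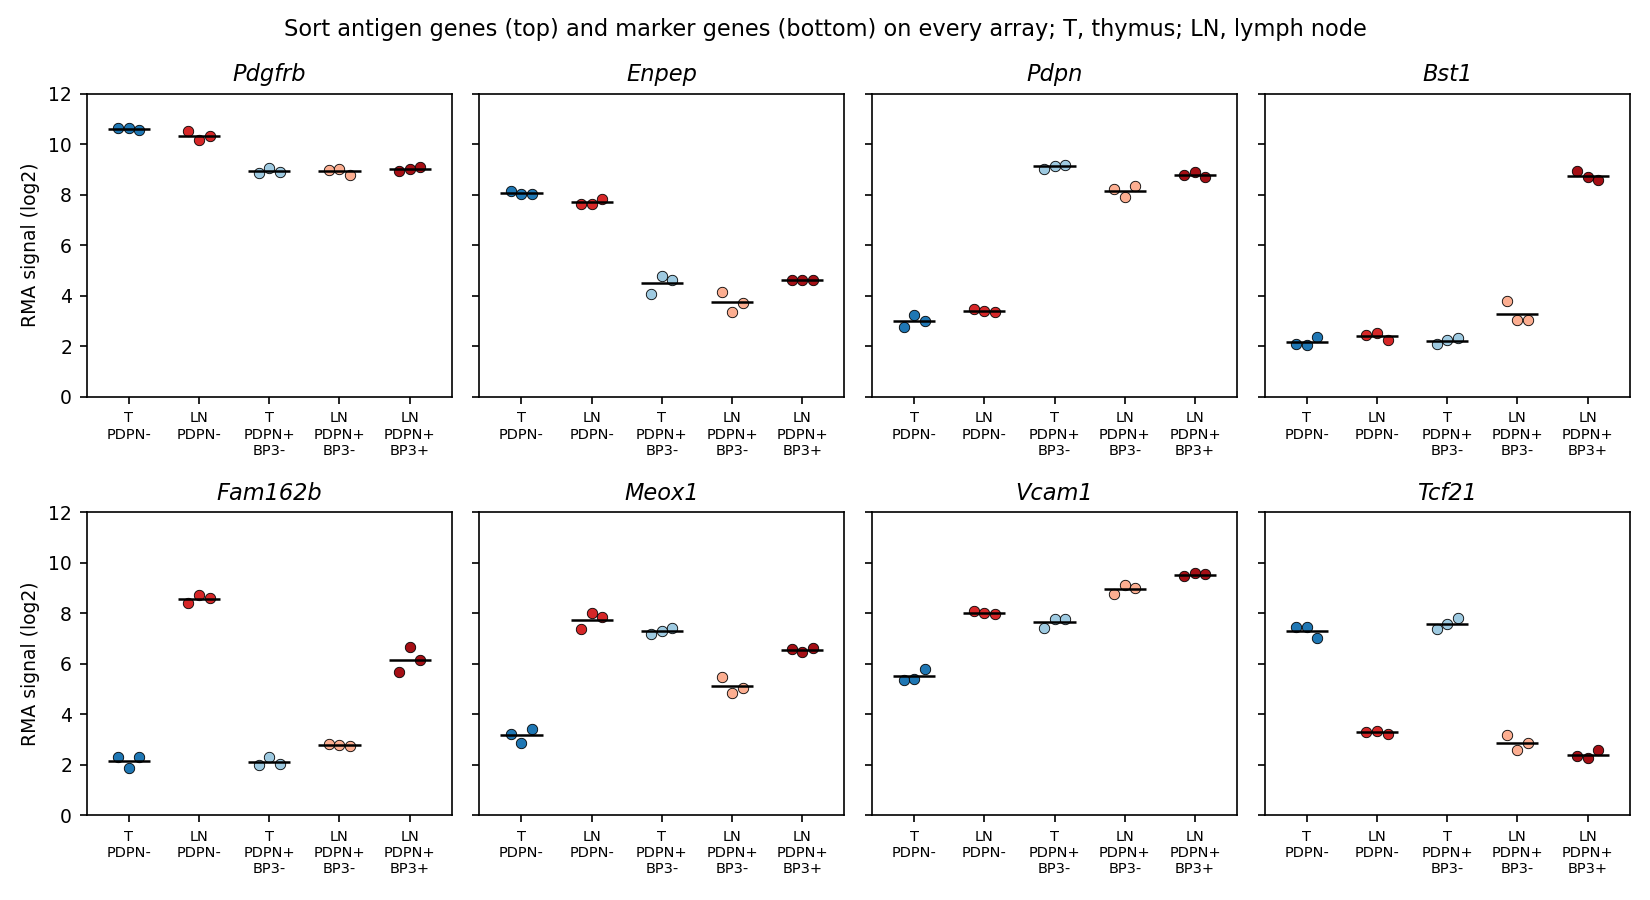
RMA signal (log2, vertical axis) of the sort antigen genes Pdgfrb, Enpep, Pdpn and Bst1 and of the marker genes Fam162b, Meox1, Vcam1 and Tcf21 on each of the 15 arrays, by population (horizontal axis); points are arrays and lines the means of 3. In PDPN- cells Fam162b stands at 8.39 to 8.71 in lymph node against 1.88 to 2.31 in thymus, and Tcf21 at 3.20 to 3.34 against 7.0 to 7.47.

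The marker genes of the comparison separated the tissues by wide margins. Fam162b stood at 8.39, 8.71 and 8.60 on the lymph node arrays and at 2.31, 1.88 and 2.30 on the thymus arrays. Its signal was high on every lymph node array and below the table median on every thymus array. The difference of 6.40 ± 0.19 (adjusted p 1.61e-11) was the largest of all 18718 genes. Among the podoplanin-positive cells of lymph node it reached 6.16 where BP3 was present and 2.79 where it was absent.

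Meox1, a homeobox factor of somite-derived mesenchyme, was at 7.37, 8.0 and 7.84 in lymph node and 3.20, 2.88 and 3.43 in thymus. All lymph node arrays lay above all thymus arrays, by 4.57 ± 0.18 on average (adjusted p 1.72e-10). Vcam1, the adhesion molecule that binds integrin α4β1 of lymphocytes, stood at 8.08, 8.0 and 7.95 in lymph node and at 5.34, 5.39 and 5.77 in thymus. It was above the table median in both tissues, and the groups did not overlap (2.51 ± 0.13, adjusted p 3.60e-09).

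Tcf21, a bHLH factor of visceral and cardiac mesenchyme, ran the other way. It was at 3.31, 3.34 and 3.20 in lymph node and at 7.47, 7.45 and 7.0 in thymus. The lymph node signal was below the table median and the difference was -4.02 ± 0.17 (adjusted p 2.83e-10). PDPN+BP3- cells showed the same direction, at 2.87 in lymph node and 7.59 in thymus. These genes were proposed as markers with earlier results of these data known.

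The stretches of 250 bases before the starts of Fam162b and Tcf21 are shown because these markers had opposite differences. The RefSeq promoter table of build GRCm38.p6 places the Fam162b stretch at chr10:51590461-51590710 and the Tcf21 stretch at chr10:22820144-22820393, both read 5′ to 3′ on the minus strand. Capitals mark the E box CANNTG, the core bound by bHLH factors, searched on both strands.
Fam162b: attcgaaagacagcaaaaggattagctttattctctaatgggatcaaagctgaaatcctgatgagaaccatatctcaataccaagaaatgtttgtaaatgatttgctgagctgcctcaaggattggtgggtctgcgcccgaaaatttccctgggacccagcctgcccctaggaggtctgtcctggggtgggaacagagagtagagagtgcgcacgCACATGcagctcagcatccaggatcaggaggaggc
Tcf21: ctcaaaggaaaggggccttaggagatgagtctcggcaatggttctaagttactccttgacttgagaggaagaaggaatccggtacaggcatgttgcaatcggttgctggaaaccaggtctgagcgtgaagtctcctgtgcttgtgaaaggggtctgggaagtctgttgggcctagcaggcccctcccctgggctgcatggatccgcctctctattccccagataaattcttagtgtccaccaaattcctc
The Fam162b stretch held 1 E box and the Tcf21 stretch none. An E box was found in 66.2% of the 32851 stretches of the table, so its presence sets neither gene apart.

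Across the genome 1799 of 18718 genes were called, a background of 9.61%. Of these, 827 (4.42% of genes tested) were higher and 972 (5.19%) were lower in lymph node. On 1781 of the 1799 the 3 arrays of one tissue did not overlap the 3 of the other. A call already selects genes for such separation, so this count is no separate support. The median difference over all genes was -0.01, and 603 calls had a log2 difference of at least 1, with 337 higher and 266 lower. In 623 calls the tissue with the lower mean lay below the table median. These values say how far the signals differ and are not turned into ratios of RNA. Below, the share of a gene list called is set beside the share of all genes. The lists were chosen with earlier results of these data known, and all genes include many of low signal. These shares describe the lists and are no test.

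The largest rises and falls were ranked without predicted genes, numbered clones, olfactory and vomeronasal receptors, small RNAs and antigen receptor segments. Such genes made up 68 of the 1799 calls. Among the 15 largest rises in lymph node beside Fam162b and Meox1, Fndc1, which encodes a secreted protein with fibronectin type III domains, stood at 7.81, 7.36 and 7.05 in lymph node and 2.74, 3.30 and 3.40 in thymus (4.26 ± 0.19). Dpt encodes dermatopontin, a protein that binds decorin and collagen. It was at 8.40, 8.41 and 8.28 in lymph node and 4.44, 4.16 and 5.30 in thymus (3.73 ± 0.27). Col12a1, a collagen found on the surface of fibrils, was higher by 3.36 ± 0.16.

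Prkg2, a kinase activated by cGMP, stood at 7.77, 7.48 and 7.61 in lymph node and at 4.72, 4.15 and 3.85 in thymus (3.38 ± 0.18), and its other transcript cluster differed by 3.18. Casp4, the caspase that senses cytosolic lipopolysaccharide, was at 7.72, 7.46 and 7.35 against 4.16, 3.71 and 4.02 (3.55 ± 0.13). Pamr1, a secreted protein related to serine proteases, was higher by 3.62 ± 0.15. No array of one tissue overlapped the other for any of these genes, which was a condition for ranking them and is no separate support. Serpina1b (5.29 ± 0.38), Serpina1d (4.54 ± 0.17) and H2-M9 (3.60 ± 0.17) were higher too, but they belong to families of near-identical copies and their signal is not assigned to a copy with certainty.

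**Figure D2:**
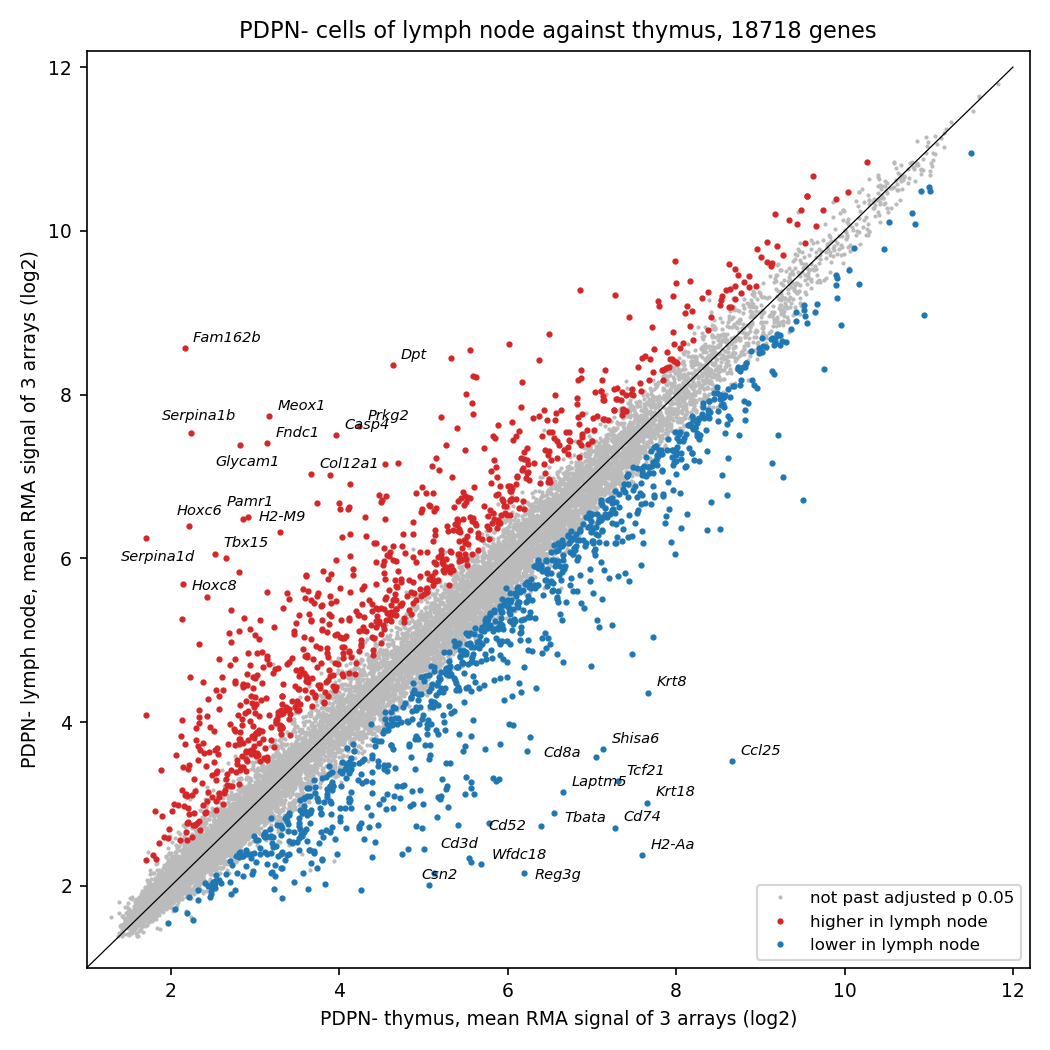
Mean RMA signal of 3 arrays (log2) in PDPN- thymus cells (horizontal axis) and PDPN- lymph node cells (vertical axis) for 18718 genes; red points are the 827 genes called higher in lymph node, blue points the 972 called lower, grey points the rest, and the line marks equal signal. The 15 largest rises and 15 largest falls among the kinds of gene ranked are named. Of these, Fam162b lies farthest above the line (6.40) and H2-Aa farthest below it (-5.22).

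Of the 15 largest falls, 7 stood in the lists of T lineage cells, thymic epithelium or class II antigen presentation. The count covers only members of these lists, and the part of thymocyte or epithelial RNA in the other falls was not tested. H2-Aa, the α chain of a class II molecule, stood at 2.13, 2.50 and 2.50 in lymph node and at 7.17, 7.91 and 7.70 in thymus (-5.22 ± 0.35). Cd74, the invariant chain that escorts class II molecules, was at 2.83, 2.68 and 2.63 against 6.97, 7.59 and 7.25 (-4.56 ± 0.30). Both were below the table median on every lymph node array. Ccl25, the chemokine by which thymic epithelium attracts progenitors, was lower by 5.14 ± 0.40 on the log2 scale. Its other transcript cluster, with means of 3.84 and 3.26, differed by 0.59 in the opposite direction.

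The keratins Krt18 (-4.64 ± 0.35) and Krt8 (-3.31 ± 0.34), both of simple epithelium, and the T cell genes Cd8a (-3.47 ± 0.42) and Cd3d (-3.21 ± 0.40) completed the 7. Other large falls were Reg3g, an antimicrobial lectin (-4.03 ± 0.29), Csn2, the milk protein β-casein (-3.28 ± 0.45), Tbata, a gene named for thymus, brain and testis (-3.66 ± 0.31), and Wfdc18 (-3.41 ± 0.38). The leukocyte genes Cd52 (-3.66 ± 0.34) and Laptm5 (-3.51 ± 0.32) were lower as well. In PDPN+BP3- cells of lymph node Reg3g (-3.64), Wfdc18 (-3.03), Tbata (-2.17), Csn2 (-1.81) and Laptm5 (-1.65) were also lower. Cd52 (-0.72) was not called there. Shisa6, of the Shisa family of membrane adaptors, stood at 4.31, 3.10 and 3.59 in lymph node and 7.05, 7.37 and 6.98 in thymus (-3.47 ± 0.23).

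Markers of other cells moved with these falls. Of 16 T lineage genes 12 (75%, against 5.19% of all genes) were lower in lymph node and 0 higher (median -2.20). Their mean signal was 3.21 to 3.38 on the lymph node arrays and 5.03 to 5.52 on the thymus arrays. Among them, Cd3g stood at 1.94, 2.13 and 1.98 against 4.72, 5.07 and 5.40, while Ptcra, the pre-T cell receptor chain, was below the table median in both tissues (2.57 and 2.84). Of 18 thymic epithelium genes 11 (61.1%, against 5.19% of all genes) were lower and 0 higher (median -0.81). After a filter on low values 7 were lower. Their means were 2.94 to 3.01 on the lymph node arrays and 4.20 to 4.54 on the thymus arrays. The protease Prss16 of cortical epithelium was at 3.06, 2.70 and 2.54 in lymph node and at 5.41, 6.12 and 5.81 in thymus. Foxn1, the master factor of thymic epithelium, stood at 2.72 and 3.91.

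Among 7 class II genes 5 (71.4%, against 5.19% of all genes) were lower and 0 higher (median -1.41). H2-Ab1, the β chain that pairs with the product of H2-Aa, stood at 5.52, 6.61 and 6.43 in lymph node and at 7.18, 7.98 and 7.65 in thymus (-1.42 ± 0.29). Of 17 myeloid genes, Ptprc, the leukocyte antigen CD45, was lower (-1.99 ± 0.31) and Cd68 higher (1.19 ± 0.27). That is 5.88% each way, near the 5.19% and 4.42% of all genes. The mean of the 17 genes was 2.66 to 2.70 on the lymph node arrays and 2.86 to 3.14 on the thymus arrays. In sorted bulk samples fewer cells of a type and less RNA per cell cannot be told apart. The part of thymocyte and epithelial RNA in the other genes lower in lymph node was not tested. The T lineage, thymic epithelium and class II lists together hold 28 of the 972. They have only 16, 18 and 7 measured genes, so this count does not size that part. No member of 9 B cell, 6 lymphatic endothelium, 8 adipocyte, 7 Schwann cell, 6 mesothelium, 14 skeletal muscle or 3 red blood cell genes was called. Over all genes the share called was 9.61%.

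Hox genes, which give cells a record of their position along the body axis, differed by position within their clusters. Of 17 measured members of paralogous groups 5 to 10, 14 were higher in lymph node, against 4.42% of all genes, and 0 lower (median 1.73). Hoxc6 stood at 6.80, 6.21 and 6.19 in lymph node and at 2.23, 2.30 and 2.12 in thymus. Thymus signals were below the table median on every array, and the difference was 4.18 ± 0.19. Hoxc8, at 6.11, 5.26 and 5.71 against 1.99, 2.34 and 2.10, differed by 3.55 ± 0.21.

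Members of all 4 clusters took part, with Hoxc9 (2.62 ± 0.19), Hoxa6 (2.41 ± 0.19), Hoxd9 (2.21 ± 0.19) and Hoxb6 (1.73 ± 0.13) among them. The 3 not called were Hoxb7 (0.33 ± 0.13), Hoxb9 (-0.03 ± 0.16) and Hoxd10 (0.32 ± 0.11). Hoxc10 was called, at 4.75 and 4.40 on lymph node replicates 1 and 2 and 2.94 on replicate 3.

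Outside these groups the picture differed. Of 11 members of groups 1 to 4, Hoxc4 (1.52 ± 0.25) and Hoxd4 (0.82 ± 0.17) were higher and Hoxa2 lower, and the median was -0.15. Hoxa2, which patterns the mesenchyme of the second pharyngeal arch, stood at 4.71, 4.99 and 4.51 in lymph node and 6.61, 6.77 and 6.59 in thymus (-1.92 ± 0.21). None of 8 members of groups 11 to 13 was called, and the highest mean among them was 2.70. Meis1, which encodes a partner of Hox proteins, was at 5.39, 5.11 and 5.24 in lymph node and at 7.04, 6.86 and 7.27 in thymus (-1.81 ± 0.16).

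The PDPN+BP3- comparison uses other arrays, and Hox differences there are given beside those above. Hoxc8 differed by 3.38 in those cells, with an interaction (the PDPN- difference minus the PDPN+BP3- difference) of 0.17 and an adjusted p of 0.779. Hoxc6 differed by 3.35, with an interaction of 0.83 (adjusted p 0.0531) that was called after cyclic loess. Hoxa2 differed by -0.63 there, and the interaction of -1.29 was called (adjusted p 0.00741).

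**Figure D3:**
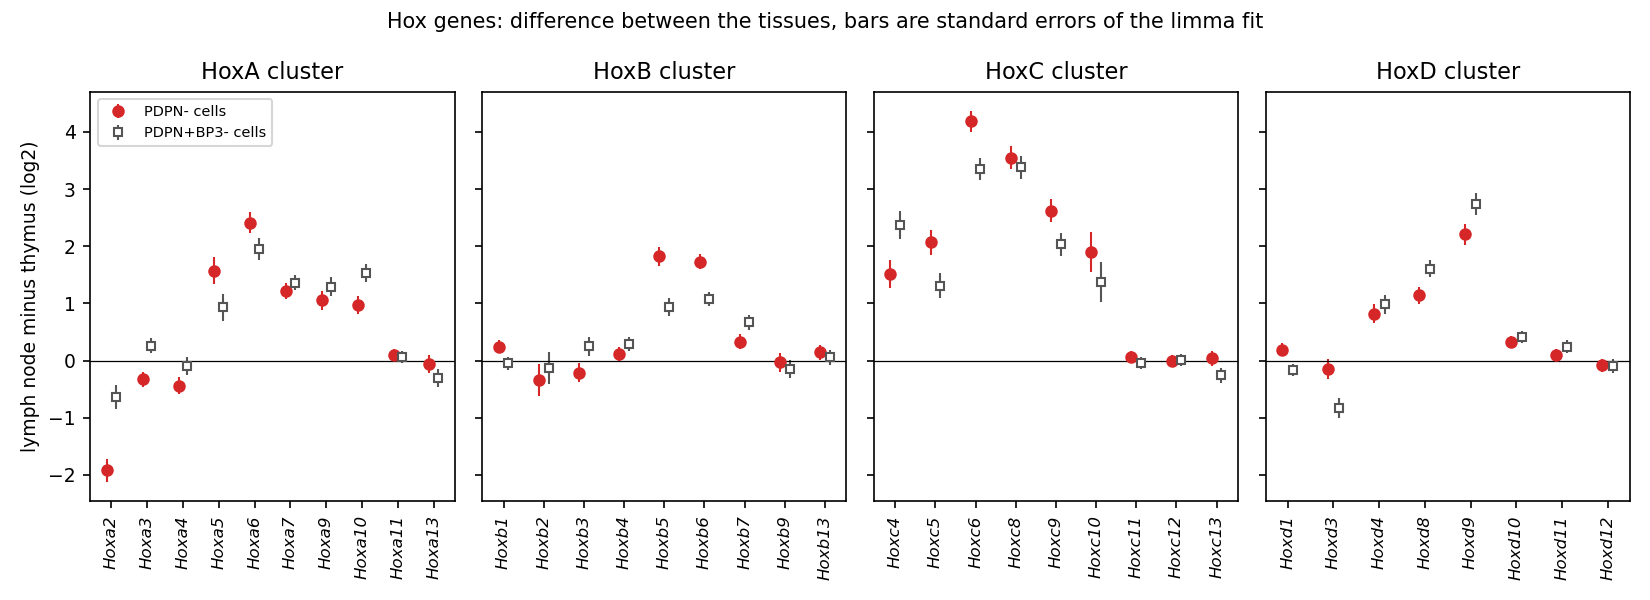
Lymph node minus thymus (log2, vertical axis) for the measured genes of the 4 Hox clusters in PDPN- cells (red circles) and PDPN+BP3- cells (open squares); bars are standard errors, 3 arrays per group. The middle of each cluster lies above 0, with Hoxc6 at 4.18 and 3.35, while groups 11 to 13 lie near 0.

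Transcription factors of regional mesenchyme outside the Hox clusters went in both directions. Of 60 such genes 8 (13.3%, against 4.42% of all genes) were higher and 15 (25%, against 5.19%) lower in lymph node. Without thymus PDPN- replicate 2, 9 were lower. Tbx15, a T-box factor of trunk and limb mesenchyme, stood at 6.19, 5.95 and 6.04 in lymph node and at 2.54, 2.41 and 2.61 in thymus (3.54 ± 0.14). Foxf1, a forkhead factor of visceral mesoderm, was at 8.19, 8.41 and 7.85 against 5.92, 6.27 and 6.33 (1.98 ± 0.20). For both the arrays of the tissues lay well apart. Tbx5, known for the forelimb and the heart (1.71 ± 0.28), Gata6 (1.30 ± 0.20) and the homeobox gene En1 (0.65 ± 0.11) were higher too, En1 below the table median in both tissues.

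Of the 15 lower in lymph node, Tcf21 had the largest difference. Alx1, a craniofacial homeobox gene, stood at 2.59, 2.75 and 2.82 in lymph node and 4.55, 4.44 and 4.06 in thymus (-1.63 ± 0.15). Foxc1 (-1.54 ± 0.25), Dlx5 (-1.36 ± 0.16) and Tbx3 (-1.01 ± 0.13) had the same direction. Msx1, a homeobox gene also known from the face, was higher in lymph node (0.46 ± 0.12), and Tbx1 (0.19), Twist1 (0.11) and Dlx6 (0.02) were not called. Pax1, expressed in the pharyngeal pouch endoderm from which thymic epithelium arises, fell by 1.44 ± 0.18, on arrays whose epithelial genes also differed.

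Many genes of the interstitial matrix were higher in lymph node. Of 36 measured genes 21 were higher, against 4.42% of all genes, and 1 was lower (median 0.67). Col1a1, a chain of type I collagen, stood at 8.85, 8.63 and 8.74 in lymph node and at 6.40, 6.60 and 6.48 in thymus. Every lymph node array was above every thymus array, by 2.25 ± 0.13 on average. The other chain of that collagen, Col1a2, was higher by 0.67 ± 0.11.

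Mfap5, a glycoprotein of microfibrils, was at 8.54, 8.82 and 8.28 against 5.87, 5.58 and 5.22 (2.99 ± 0.20). The proteoglycan gene Vcan was at 5.15, 5.52 and 5.45 in lymph node and below the table median, at 2.73, 2.37 and 3.06, in thymus (2.65 ± 0.20). Decorin, Dcn, which binds collagen fibrils, stood at 9.27, 9.12 and 9.25 against 7.36, 6.82 and 7.65 (1.94 ± 0.15). Lum (2.51 ± 0.27), a relative of decorin, and Tnc (1.84 ± 0.14), which encodes tenascin-C, followed. The member that fell was Fbln1, by 0.67 ± 0.15.

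Fibroblast genes moved with the matrix. Of 18 genes of adventitial fibroblasts 8 (44.4%, against 4.42% of all genes) were higher and 1 (5.56%, against 5.19%) lower (median 0.27). Their mean was 5.18 to 5.25 on the lymph node arrays and 4.54 to 4.64 on the thymus arrays. Col14a1, Lum and Mfap5 stand in both lists. Pdgfra, a receptor that marks fibroblasts, was at 4.40, 3.98 and 4.38 in lymph node and 2.97, 2.70 and 3.02 in thymus (1.36 ± 0.14); in PDPN+BP3- cells of lymph node it was 9.44. The fibroblast genes Pi16 (2.25 and 2.41) and Il33 (2.75 and 2.80) were below the table median in both tissues and did not differ by more than their errors (-0.16 ± 0.28 and -0.05 ± 0.12). Thy1, shared by fibroblasts and T cells, was lower in lymph node (-1.97 ± 0.18). The part of fibroblasts in the matrix result was not tested.

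In PDPN+BP3- cells 6 of the same 36 matrix genes (16.7%, against 11.8% of all genes) were higher and 11 (30.6%, against 5.29%) lower in lymph node. The split of calls over all genes in those cells turned after cyclic loess, from 2215 higher and 990 lower to 1332 and 1584. The interaction was called for 25 of the 36, 24 of them positive (66.7%, against 4.05% of all genes) and 1 negative. For Vcan the PDPN- difference of 2.65 stood beside -0.71, an interaction of 3.36 (adjusted p 8.37e-07), and for Col1a1 2.25 stood beside 0.47, an interaction of 1.78 (adjusted p 5.16e-06).

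Basement membrane genes form the sheet shared by pericytes and endothelium. Of 22 genes 2 (9.09%, against 4.42% of all genes) were higher and 4 (18.2%, against 5.19%) lower. There were 8 lower without lymph node PDPN- replicate 1 and 1 higher without thymus PDPN- replicate 1 or 3. Col15a1, a collagen of vascular basement membranes, stood at 4.51, 3.97 and 4.47 in lymph node and 6.01, 6.17 and 5.98 in thymus (-1.74 ± 0.16). Col4a5 (-1.11 ± 0.14) and the perlecan gene Hspg2 (-0.73 ± 0.15) were lower too, and the sarcoglycan Sgcd was higher (1.05 ± 0.15).

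Pericyte genes were high in both tissues, yet where they differed they were lower in lymph node. Of the 20 genes 9 were lower and 0 higher (median -0.31), against 5.19% of all genes lower. Higd1b, a mitochondrial protein used to mark pericytes, stood at 6.42, 6.84 and 6.88 in lymph node and at 9.54, 9.50 and 9.49 in thymus. The groups lay far apart, with a difference of -2.80 ± 0.12 (adjusted p 4.07e-10). Anpep, the aminopeptidase CD13, was at 8.54, 8.11 and 8.30 against 9.91, 9.61 and 9.74 (-1.44 ± 0.13). Cox4i2 (-0.99 ± 0.19), a subunit of cytochrome c oxidase, and vitronectin, Vtn (-0.81 ± 0.13), fell as well. The 11 that were not called ran from -0.35 to 0.03, with Notch3, the receptor by which mural cells read endothelial ligands, at -0.06 ± 0.19.

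The ion channels of vascular muscle showed the same side. Of 16 genes, 3 of them also pericyte genes, 7 (43.8%, against 5.19% of all genes) were lower and 2 (12.5%, against 4.42%) higher. The median was -0.54. Trpc6, a cation channel opened by diacylglycerol, stood at 5.89, 6.56 and 6.15 in lymph node and 7.95, 8.05 and 7.83 in thymus (-1.74 ± 0.14). Kcnj8 (-1.11 ± 0.15) and Abcc9 (-0.58 ± 0.12) form the pore and the regulatory subunit of the pericyte potassium channel that ATP closes, and both were lower. The calcium channel gene Cacna1h (-1.69 ± 0.27) and Kcnmb1 (-1.08 ± 0.17), a subunit of a calcium-activated potassium channel, were lower too. The exception of largest size was Ryr2, the calcium release channel, at 5.48, 5.06 and 4.87 in lymph node against 3.03, 2.85 and 2.94 in thymus (2.20 ± 0.13).

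Of 23 contractile genes 4 (17.4%, against 4.42% of all genes) were higher and 2 (8.70%, against 5.19%) lower, or 1 lower without thymus PDPN- replicate 2. Cnn1, which encodes calponin, was at 6.50, 6.78 and 6.87 in lymph node and at 5.06, 4.26 and 4.19 in thymus (2.21 ± 0.21). Actg2, an actin typical of visceral muscle, was higher by 2.11 ± 0.12. Casq2, the calcium buffer of the sarcoplasmic reticulum, stood at 6.35, 6.39 and 6.90 against 8.39, 8.0 and 8.01 (-1.59 ± 0.17). Myh11, the myosin of smooth muscle, was at 9.70 to 10.24 on all 6 arrays and differed by 0.30 ± 0.16, which was not called. Avpr1a, the vasopressin receptor, was lower by 1.83 ± 0.21 and the thrombin receptor F2r higher by 1.0 ± 0.14. Of 24 vasoactive receptors 5 (20.8%, against 4.42% of all genes) were higher and 2 (8.33%, against 5.19%) lower. These counts went down to 2 and 1 when single arrays were left out.

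Genes by which stroma holds and attracts leukocytes were higher in lymph node in several cases. Of 18 adhesion ligands 7 (38.9%, against 4.42% of all genes) were higher (median 0.31) and 1 (5.56%, against 5.19%) was lower. The lower call was lost without lymph node PDPN- replicate 3 or thymus PDPN- replicates 2 or 3. Beside Vcam1, Icam1, the ligand of the integrin LFA-1, stood at 7.58, 7.66 and 7.43 in lymph node and 5.70, 6.01 and 6.69 in thymus (1.42 ± 0.20). Sele, which encodes E-selectin, was at 6.70, 6.96 and 6.94 against 4.45, 4.97 and 5.53 (1.88 ± 0.25). Cadm1, an adhesion molecule of the immunoglobulin family, was higher by 2.68 ± 0.25.

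Glycam1 and Madcam1 are products of high endothelial venules and were read beside the endothelial markers. Glycam1, a mucin that binds L-selectin, was at 8.85, 9.43 and 3.86 in lymph node and at 2.64, 2.88 and 2.94 in thymus. Replicate 3 of lymph node lay close to the thymus arrays, and the difference of 4.56 ± 0.91 became 6.32 without it. Glycam1 was also high in the other lymph node sorts, with means of 9.88 in PDPN+BP3- and 8.70 in PDPN+BP3+ cells. In PDPN+BP3- cells of thymus its mean was 2.85. Madcam1, the ligand of integrin α4β7, had a low signal, at 2.90, 4.26 and 3.70 in lymph node and 2.43, 2.45 and 2.29 in thymus (1.23 ± 0.25). The mean of 20 endothelial genes was 4.16, 4.18 and 3.62 on the same lymph node arrays and 3.43 to 3.50 on the thymus arrays. The list holds Glycam1 and Madcam1 themselves. Pecam1, an adhesion molecule of all endothelium and another member, was at 4.50, 4.73 and 3.72 in lymph node and 3.36, 3.0 and 3.61 in thymus, with lymph node replicate 3 again the lowest of its group. The part of endothelial RNA in these results was not tested.

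Of those 20 endothelial genes 7 (35%, against 4.42% of all genes) were higher and 2 (10%, against 5.19%) lower (median 0.28). In PDPN+BP3- cells 13 of the 20 (65%, against 11.8% of all genes) were higher and 1 (5%, against 5.29%) lower in lymph node. The interaction was positive for 0 and negative for 5 (25%, against 8.67% of all genes). After cyclic loess it was positive for 2 and negative for 3. Sox18 stood at 5.50, 5.66 and 5.22 against 3.47, 3.53 and 4.11 (1.76 ± 0.18) and Plvap, of endothelial diaphragms, at 4.90, 5.0 and 4.41 against 3.19, 3.09 and 3.15 (1.63 ± 0.16). Cdh5, the endothelial cadherin, was below the table median, at 3.52, 3.40 and 2.70 in lymph node and 2.62, 2.98 and 2.83 in thymus, and was not called. Emcn, the sialomucin endomucin, went the other way, at 5.48, 4.92 and 4.72 in lymph node and 7.82, 7.64 and 7.71 in thymus (-2.68 ± 0.21).

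Of 18 lymphoid chemokine genes 5 (27.8%, against 4.42% of all genes) were higher and 3 (16.7%, against 5.19%) lower. Without thymus PDPN- replicate 1, 3 were higher. Cxcl9, which is induced by interferon γ and attracts T cells, was at 9.56, 9.38 and 9.15 in lymph node and 8.04, 7.68 and 8.28 in thymus (1.36 ± 0.17). Ccl7 (1.66 ± 0.23), a ligand of monocytes, and Cxcl1 (1.04 ± 0.19), of neutrophils, were also higher. Cxcl12, the ligand of CXCR4 that retains progenitors, stood at 7.63, 7.64 and 7.80 in lymph node and 8.93, 8.87 and 8.66 in thymus (-1.13 ± 0.14). Ccl19, a ligand of CCR7, was at 9.03 and 8.75 and was not called (0.28 ± 0.12), and Cxcl13, which attracts B cells, was at 4.20 and 4.36.

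Of 28 genes of lymphoid stroma cytokines and the NF-κB pathway 10 were higher in lymph node and 0 lower (median 0.18). The 10 are 35.7% of the list, against 4.42% of all genes. NF-κB is the factor through which lymphotoxin and TNF receptors act in lymph node stroma. Lif, a cytokine of the interleukin-6 family, stood at 4.24, 5.13 and 5.20 in lymph node and at 2.90, 3.26 and 3.09 in thymus (1.77 ± 0.27). Tnfsf11, which encodes RANKL, was at 4.63, 4.46 and 4.57 against 2.76, 2.62 and 3.56 (1.57 ± 0.31). The lymph node arrays were above all thymus arrays for both.

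Inhibitors that NF-κB itself induces were among the 10. Tnfaip3, the ubiquitin-editing protein A20, stood at 9.16, 9.19 and 9.28 against 7.81, 7.68 and 8.40 (1.25 ± 0.20). Nfkbie, an IκB protein, was at 8.79, 8.18 and 7.92 against 7.12, 6.98 and 7.35 (1.15 ± 0.20). Nfkbia, the IκBα gene, was at 10.01, 10.18 and 10.21 against 9.32, 9.26 and 9.45 (0.79 ± 0.17). The survival factor Birc3 was higher by 0.82 ± 0.15. Thymus PDPN- replicate 3 was the highest of its group for Tnfaip3, Nfkbie, Nfkbia and Birc3. Ltbr, the lymphotoxin receptor (-0.43, adjusted p 0.0515), and Tnfrsf1a, a TNF receptor (-0.37, adjusted p 0.0582), were just short of a call. After quantile normalization, and without lymph node PDPN- replicate 1, 1 member of the list was called lower.

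The promoters of Nfkbia, Nfkbie and Tnfaip3 are shown since these inhibitors rose together. Each line gives the 250 bases before the start, 5′ to 3′, from the RefSeq table of GRCm38.p6, with the kappa B motif in capitals. They lie at chr12:55492648-55492897 on the minus strand, chr17:45555450-45555699 on the plus strand and chr10:19015411-19015660 on the minus strand.
Nfkbia: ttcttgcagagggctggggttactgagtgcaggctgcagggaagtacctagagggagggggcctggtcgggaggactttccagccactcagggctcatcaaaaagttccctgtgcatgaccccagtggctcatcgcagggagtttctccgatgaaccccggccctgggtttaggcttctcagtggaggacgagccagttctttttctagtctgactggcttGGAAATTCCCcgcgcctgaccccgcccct
Nfkbie: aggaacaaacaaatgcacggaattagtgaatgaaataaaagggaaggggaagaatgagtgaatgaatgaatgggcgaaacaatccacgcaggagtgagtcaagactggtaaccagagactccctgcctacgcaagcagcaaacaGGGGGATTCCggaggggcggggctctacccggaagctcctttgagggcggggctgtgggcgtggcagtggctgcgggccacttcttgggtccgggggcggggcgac
Tnfaip3: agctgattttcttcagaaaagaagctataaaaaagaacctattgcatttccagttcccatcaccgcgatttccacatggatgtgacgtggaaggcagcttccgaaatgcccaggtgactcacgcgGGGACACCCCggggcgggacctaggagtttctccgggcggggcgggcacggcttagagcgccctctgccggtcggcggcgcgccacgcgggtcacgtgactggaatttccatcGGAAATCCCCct
The motif begins 29 bases before the start in Nfkbia, 106 in Nfkbie, and 125 and 12 in Tnfaip3. The table gives another start of Tnfaip3 as well, and the 250 bases before that start held 0 matches. A gene is counted below if the stretch of any of its starts held the motif. Of the 10 genes higher in lymph node 9 had a promoter in the table and 6 held the motif (Csf1, Lif, Nfkb2, Nfkbia, Nfkbie and Tnfaip3). Of the 18 not called 12 had a promoter and 2 held it (Il6 and Kitl). On either strand the motif was found in 8.23% of the 27025 genes of the table. A match describes the letters and is no evidence of binding. The list was put together by pathway and with earlier results of these data known, so these counts depend on the choice of its members. The part of NF-κB in these rises was not tested.

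Genes of the interferon response were higher in lymph node in 11 of 27 cases (40.7%, against 4.42% of all genes). They were lower in 0 (median 0.35). Oas1a, an antiviral enzyme, was at 6.44, 5.84 and 5.07 in lymph node and at 3.62, 3.40 and 3.81 in thymus (2.17 ± 0.31). Ifi27l2a (1.36 ± 0.25) and Zbp1 (1.30 ± 0.22), a sensor of nucleic acid, were higher too. Of other genes that type I interferon induces, Dhx58 (1.09 ± 0.17), Irf7 (0.78 ± 0.17) and Isg15 (0.62 ± 0.13) were higher, while Ifit1 (0.00), Ifit3 (0.33), Mx1 (0.11) and Rsad2 (-0.25) were not called. Of 12 genes of class I antigen presentation 5 (41.7%, against 4.42% of all genes) were higher and 0 lower (median 0.39). H2-K1, a classical class I heavy chain, stood at 9.12, 9.01 and 9.13 against 8.04, 8.22 and 8.13 (0.96 ± 0.11), and Psmb9, of the immunoproteasome, was higher by 0.84 ± 0.15. B2m, the light chain, was not called (0.30). Class I heavy chains are alike in sequence, so the signal of H2-K1 may include that of its relatives.

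Of 34 vessel growth factors and receptors 9 (26.5%, against 4.42% of all genes) were higher and 1 (2.94%, against 5.19%) lower, or 4 lower without lymph node PDPN- replicate 1. Pdgfd, a ligand of PDGFRβ, stood at 5.83, 5.15 and 5.52 in lymph node and below the table median, at 3.60, 3.41 and 3.20, in thymus (2.10 ± 0.23). The lymphangiogenic factor Vegfd was at 5.81, 6.20 and 5.41 against 4.01, 4.07 and 3.64 (1.90 ± 0.16). Hgf was higher by 1.60 ± 0.20 and pleiotrophin, Ptn, lower by 0.83 ± 0.14. Angpt2, which loosens contacts of endothelium and pericytes, was at 8.27 to 9.03 on all 6 arrays and was not called (0.23 ± 0.17).

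Of 27 Wnt pathway genes 2 (7.41%, against 4.42% of all genes) were higher and 4 (14.8%, against 5.19%) lower. Sfrp4, a secreted antagonist, stood at 5.36, 4.90 and 5.09 against 2.54, 3.04 and 2.84 (2.31 ± 0.19), while Axin2, a target of β-catenin, was lower (-0.85 ± 0.11). Lef1 was lower as well (-2.08 ± 0.26), and it is also a gene of thymocytes. Of 31 BMP and TGF-β genes 3 (9.68%, against 4.42% of all genes) were higher and 3 (9.68%, against 5.19%) lower. After cyclic loess 6 were higher. Bmp4 stood at 3.45, 2.56 and 3.00 in lymph node and 4.44, 4.49 and 4.49 in thymus (-1.47 ± 0.22), and Ltbp4, which stores latent TGF-β in the matrix, at 7.02, 6.59 and 6.46 against 8.34, 8.55 and 8.36 (-1.73 ± 0.14). The inhibitor of bHLH factors Id2 was higher by 1.74 ± 0.17.

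Of 35 axon guidance genes, which also steer vessels, 7 (20%, against 4.42% of all genes) were higher and 4 (11.4%, against 5.19%) lower. The netrin receptor Unc5c was at 7.0, 6.62 and 6.69 in lymph node and 4.83, 4.22 and 4.38 in thymus (2.29 ± 0.17). Slit3 was higher by 1.06 ± 0.14 and Slit2 lower by 2.04 ± 0.27, so secreted ligands of the Robo receptors had opposite signs. Of 22 lipid genes 4 (18.2%, against 4.42% of all genes) were higher and 1 (4.55%, against 5.19%) lower. Apoe, the apolipoprotein, stood at 9.80, 8.96 and 9.08 against 6.57, 6.77 and 7.25 (2.42 ± 0.20), and Ptgs2, the inducible cyclooxygenase, was higher by 2.19 ± 0.21. Of 10 complement genes 2 (20%, against 4.42% of all genes) were higher and 1 (10%, against 5.19%) lower. C2 was higher by 1.62 ± 0.14 and Cfb by 1.59 ± 0.14. Dhrs3, which reduces retinaldehyde, was higher (1.17 ± 0.15). Of 15 retinoid genes 2 (13.3%, against 4.42% of all genes) were higher and 3 (20%, against 5.19%) lower. Only 1 was lower without any one of lymph node PDPN- replicates 1, 2 and 3 or thymus PDPN- replicate 1.

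Of 15 Notch genes 2 (13.3%, against 5.19% of all genes) were lower, and without lymph node PDPN- replicate 2 or 3 or thymus PDPN- replicate 1 none was. Of 24 cell cycle genes 1 (4.17%, against 4.42% of all genes) was higher, with 4 without lymph node PDPN- replicate 1 and 0 without any one of lymph node PDPN- replicates 2 and 3 and thymus PDPN- replicate 1. Immediate early and stress genes, which tissue digestion can induce, were higher in 6 of 19 cases (31.6%, against 4.42% of all genes). Without thymus PDPN- replicate 1, 3 were higher. In PDPN+BP3- cells 14 of the 19 (73.7%, against 11.8% of all genes) were higher and 0 lower in lymph node. The interaction was negative for 4 (21.1%, against 8.67% of all genes), or 2 after cyclic loess, and positive for 0. Egr3 stood at 6.92, 6.75 and 6.44 against 5.15, 5.29 and 5.80 (1.29 ± 0.23) and Nr4a2 at 7.57, 7.48 and 7.43 against 5.86, 5.82 and 6.63 (1.39 ± 0.30). Thymus PDPN- replicate 3 was the highest of its group for both, as it was for Tnfaip3, Nfkbie, Nfkbia and Birc3. Whether the early and stress genes vary with the NF-κB list, or have a part in its result, was not tested.

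**Figure D4:**
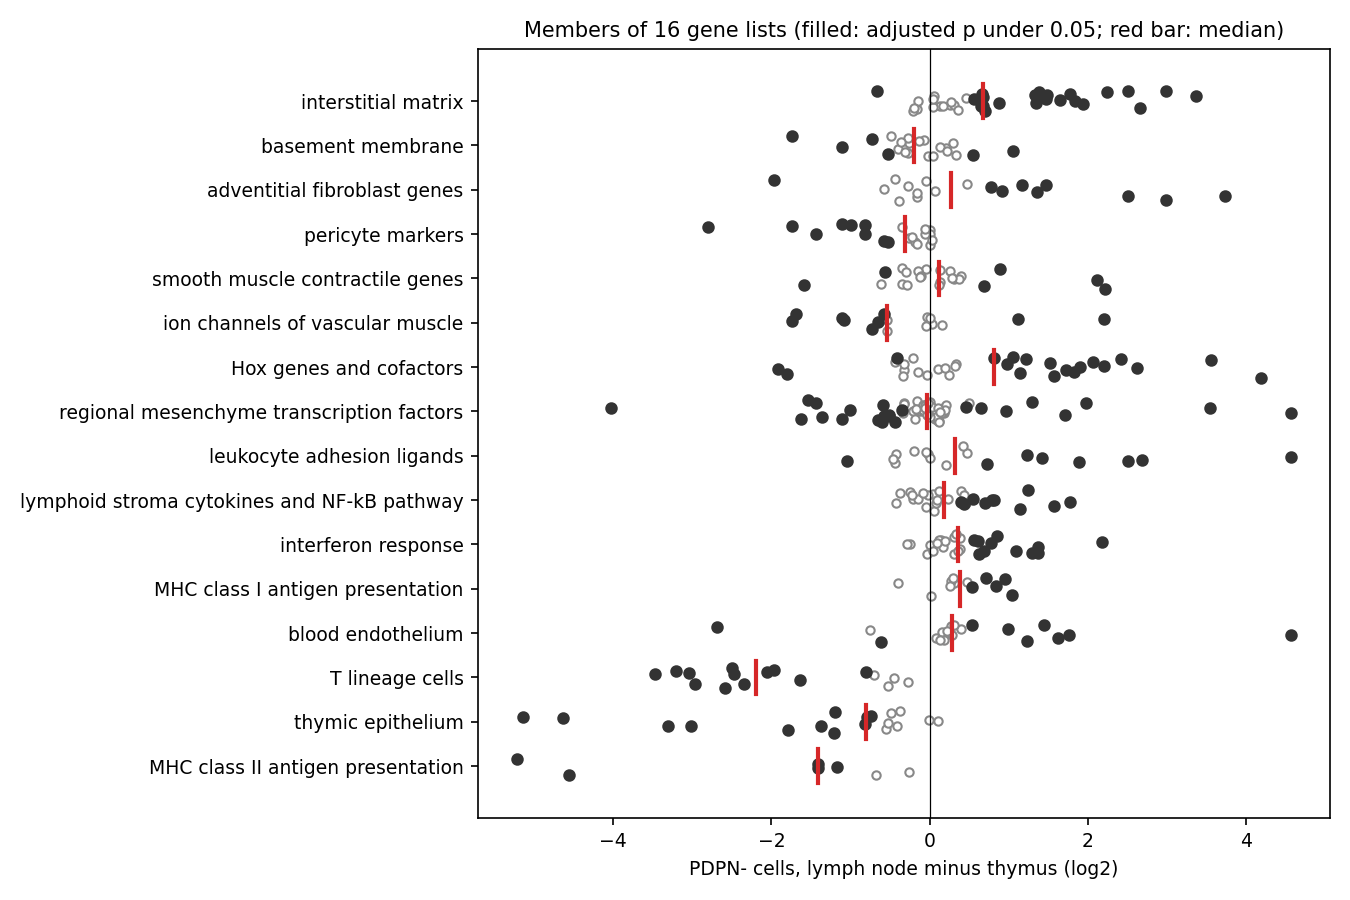
Lymph node minus thymus in PDPN- cells (log2, horizontal axis) for the members of 16 gene lists (vertical axis); filled points are genes past an adjusted p of 0.05, open points the others, and red bars the medians. Interstitial matrix has 21 of 36 members called higher (median 0.67), pericyte markers 9 of 20 called lower (median -0.31) and T lineage genes 12 of 16 called lower (median -2.20).

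Whether the tissue difference of PDPN- cells was shared by podoplanin-positive mesenchyme was asked with the PDPN+BP3- arrays, which are other arrays than those above. In PDPN+BP3- cells 3205 genes (17.1%) were called, 2215 higher and 990 lower in lymph node; after cyclic loess the split was 1332 to 1584. Genes higher in both kinds of cell numbered 355, which is 42.9% of the 827 (against 11.8% of all genes) and 16% of the 2215 (against 4.42%). Genes lower in both numbered 238, or 24.5% of the 972 (against 5.29% of all genes) and 24% of the 990 (against 5.19%). Another 72 were higher in PDPN- and lower in PDPN+BP3- cells, and 128 the reverse. Over all genes the differences in the 2 kinds of cell correlated at 0.247 by Pearson and 0.092 by Spearman, genes not being independent replicates.

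Of the 15 largest rises in PDPN- cells 9 were also higher in PDPN+BP3- cells, against 11.8% of all genes, 3 were lower and 3 were not called. Of the 9, Fam162b (2.79 and 2.12) and Serpina1d (2.34 and 1.82) were below the table median in PDPN+BP3- cells of lymph node and thymus. Their differences there were only 0.67 and 0.53. Tbx15 was of the shared kind, with 3.19 in PDPN+BP3- cells and an interaction of 0.35 (adjusted p 0.281). Of the 15 largest falls 13 were also lower in PDPN+BP3- cells of lymph node, against 5.29% of all genes. Tcf21 was lower by 4.71 there, with an interaction of 0.69 (adjusted p 0.0697) that was called after cyclic loess. The mean of the T lineage genes on the PDPN+BP3- arrays of thymus was 3.82 on replicate 1, 4.95 on replicate 2 and 5.06 on replicate 3.

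The interaction was called for 2381 genes (12.7%), 758 positive and 1623 negative. After cyclic loess 1215 were positive and 862 negative, and without thymus PDPN+BP3- replicate 1 the counts were 918 and 1146. The interaction was largest for Meox1 at 6.74 (adjusted p 2.55e-10). Its mean was 7.74 in lymph node and 3.17 in thymus for PDPN- cells, but 5.11 and 7.29 for PDPN+BP3- cells, so the order of the tissues turned. Prkg2 (3.38 against -2.55), Fndc1 (4.26 against -1.43), Mmp9 (2.59 against -2.13) and Sele (1.88 against -2.84) turned likewise. Mmp9, a gelatinase, stood at 6.01, 6.93 and 6.88 in lymph node PDPN- cells and at 3.63, 4.34 and 4.07 in those of thymus.

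In the opposite direction, Lepr, the leptin receptor, stood at 4.10, 3.17 and 3.67 in lymph node PDPN- cells and 6.32, 6.14 and 6.23 in those of thymus (-2.58 ± 0.18). In PDPN+BP3- cells it was higher in lymph node by 2.83, and the interaction was -5.41. Cxcl12 (-1.13 against 3.19), Shisa6 (-3.47 against 1.48) and Ddit4l (-2.64 against 3.26), an inhibitor of mTOR signalling, also turned. For Cldn1 (0.19), Ret (0.15) and Angpt2 (0.23) the PDPN- tissue difference was not called, and the interaction rests on PDPN+BP3- differences of 6.12, -4.87 and 4.76.

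**Figure D5:**
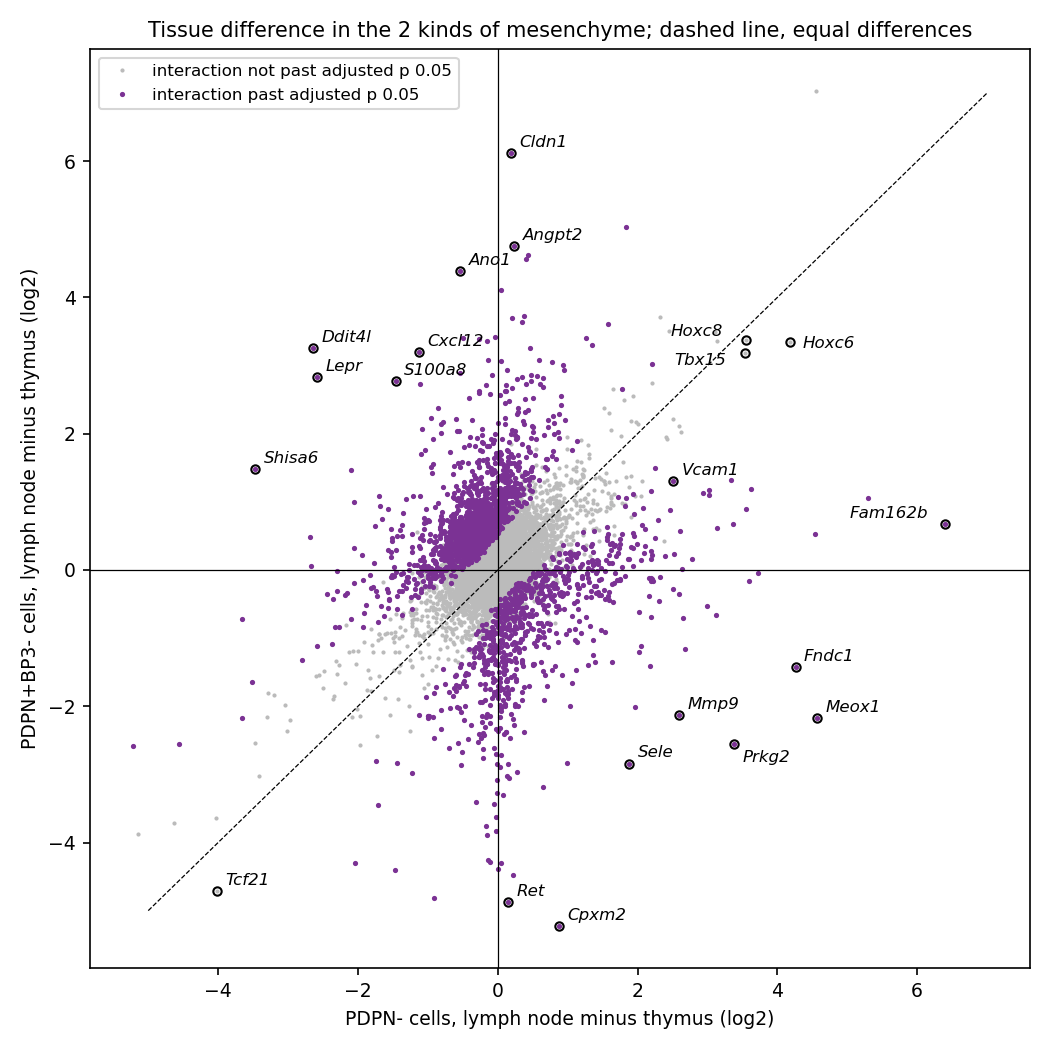
Lymph node minus thymus (log2) in PDPN- cells (horizontal axis) and PDPN+BP3- cells (vertical axis) for 18718 genes; purple points have an interaction past an adjusted p of 0.05, the dashed line marks equal differences, and ringed genes are named. Meox1, Prkg2, Fndc1, Mmp9 and Sele lie to the lower right, Lepr, Cxcl12, Shisa6 and Ddit4l to the upper left, and Tcf21 (-4.02 and -4.71) and Hoxc8 (3.55 and 3.38) near the dashed line.

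Pericyte genes also stood apart by kind of cell. In PDPN+BP3- cells 12 of the 20 (60%, against 11.8% of all genes) were higher and 5 (25%, against 5.29%) lower in lymph node. The interaction was negative for 15 (75%, against 8.67% of all genes) and positive for 2 (10%, against 4.05%). Rgs5 differed by -0.06 in PDPN- cells and by 1.86 in PDPN+BP3- cells, where its mean was 8.08 in lymph node and 6.22 in thymus (interaction -1.93, adjusted p 8.36e-07). Vtn differed by -0.81 and 2.00 (interaction -2.82, adjusted p 4.64e-08).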

How the data were processed

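Gene expression was measured on Affymetrix Mouse Gene 1.1 ST arrays after RNeasy Micro isolation, Ovation Pico WTA V2 amplification and Encore Biotin labelling, per the labels. The deposited values are log2 signals; RMA and the Affymetrix Expression Console come from the submitters' processing notes, with versions not given in the sources used here. Base 2 was inferred from the range, 1.07 to 12.07. No measure of background was used, and precision is limited by the number of arrays.

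Of 24758 transcript clusters 20844 had 1 gene symbol in the platform annotation, 1735 several and 2179 none; 20817 matched the RefSeq gene table and 0 symbols changed. For 1230 genes with several clusters the one with the highest mean over 15 arrays was kept, leaving 18718 genes. Groups came from the array titles.

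Differences were fitted with limma 3.58.1 in R 4.3.3, with 1 mean per group over all 15 arrays, no covariate, no filter and empirical Bayes variances (residual degrees of freedom 10, prior 5.50). P-values were adjusted by Benjamini and Hochberg at 0.05. The fit was tested on simulated data. Replicate numbers were not taken to pair arrays: deviations of same-numbered PDPN- arrays correlated at 0.108, 0.137 and -0.104, and between no 2 of the 4 groups fitted in the tissue comparisons did all 3 same-numbered pairs exceed 0.1 (range -0.174 to 0.288).

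The 4 sort antigen and 4 marker genes were always named, as were the 15 largest rises and falls with arrays that do not overlap, up to 6 called members per list and direction, and the 8 largest interactions of each sign; further list members are given where a whole list is described. Predicted genes, numbered clones, olfactory and vomeronasal receptors, small RNAs and antigen receptor segments were not named by rank. Members and gene lists were chosen with earlier results of these data known. Alternatives were other normalizations, filters, priors, arrays and thresholds. Promoters came from RefSeq.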

Additional observations from a re-analysis of the deposited data

Results flagged for a closer look

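The tissue difference of PDPN- cells was tested against that of PDPN+BP3- cells, and each gene below had an interaction past an adjusted p of 0.05 in limma. Among the largest rises in lymph node PDPN- cells the interaction was 6.74 for Meox1, 5.93 for Prkg2, 5.73 for Fam162b, 5.69 for Fndc1, 4.23 for Serpina1b, 4.02 for Serpina1d, 3.78 for Dpt, 3.76 for H2-M9, 2.68 for Col12a1, 2.65 for Casp4 and 2.43 for Pamr1. Vcam1 had 1.21. The lymph node excess of these genes was larger in PDPN- than in PDPN+BP3- cells, where Meox1, Prkg2 and Fndc1 were lower in lymph node. The largest rises were picked by their PDPN- difference, which also enters the interaction, so the choice favours positive signs. The number of such interactions is therefore no separate support.

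Positive interactions were also found for Cpxm2 (6.11), Ret (5.02), Mmp9 (4.73), Sele (4.73) and Pdpn (1.35). Cpxm2, a carboxypeptidase-like protein, was higher by 0.88 in lymph node PDPN- cells, a call lost without lymph node PDPN- replicate 3 (0.72) or thymus PDPN- replicates 2 (0.71) and 3 (0.90).

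Among the largest falls the interaction was -4.94 for Shisa6, -2.94 for Cd52, -2.63 for H2-Aa, -2.01 for Cd74, -1.86 for Laptm5 and -1.50 for Tbata. Picking by the PDPN- fall likewise favours negative signs. Negative interactions were also found for Cldn1 (-5.93), Ddit4l (-5.90), Lepr (-5.41), Ano1 (-4.93), Angpt2 (-4.52), Cxcl12 (-4.32), S100a8 (-4.22) and Bst1 (-0.85). After cyclic loess the calls of Tbata (-1.26) and Bst1 (-0.68) were lost.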

How the results depend on the processing

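Of 197 named genes 167 kept their side of the threshold in all 13 alternative fits of the PDPN- comparison, 27 lost their call in at least 1, each of them with an array left out and 12 also under another setting, and 0 changed direction; Ano1, S100a8 and Pdpn gained a call. Of 46 genes followed in the interaction 38 kept their side, Tbata and Bst1 lost their call in some settings, and 0 changed direction. A log2 difference of at least 1 left 603 genes in PDPN- cells (337 higher, 266 lower), 940 in PDPN+BP3- cells (546 and 394) and, in the interaction, 1181 in all with 673 negative. Cyclic loess gave 1332 higher and 1584 lower in PDPN+BP3- cells and 1215 positive and 862 negative interactions, and quantile normalization gave 1064 negative interactions. The share of higher calls was 46.0% in PDPN- cells (54.1% after loess, 48.8% after quantile), 69.1% in PDPN+BP3- cells (45.7% and 50.7%) and 31.8% in the interaction (58.5% and 51.1%); the cause was not tested. A fit on only the groups compared gave 1430 higher in PDPN+BP3- cells, with fewer arrays behind the variance.

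With 1 array left out at a time the PDPN- count was 1273 to 2047 (623 to 898 higher, 650 to 1149 lower), the PDPN+BP3- count 2353 to 3424 (1381 to 2538 higher, 798 to 1150 lower) and the interaction count 1752 to 2676 (655 to 918 positive, 1097 to 1955 negative); the lowest PDPN+BP3- count of higher genes, 1381, was without thymus replicate 1. The replicate block gave 1776 calls in PDPN- cells (834 higher, 942 lower), 3264 in PDPN+BP3- cells and 2357 interactions; the labels do not say whether a number marks a shared experiment. Limits are the 3 pools per group, the low signal of the tissue with the lower mean in 623 calls, RNA of other cells, and pool sizes that differ with the tissue.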
